A study of Drosophila melanogaster with 12 samples.

Results

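Transcripts of 10 genes of the Wingless pathway were examined in Drosophila BG3 cells (ML-DmBG3, a line that the labels derive from the central nervous system) after RNA interference against cohesin. The genes are the ligand wg, the receptors fz, fz2 and arr, the cytoplasmic components dsh, Axn and arm, the nuclear components pan and pygo, and nkd, a target that feeds back on the pathway. They were found by the gene name of the probe set on Affymetrix Drosophila Genome 2.0 arrays. A probe set was named for 3 of the 10 genes, fz2, Axn and nkd, each with 1 probe set among 18769, which name 11997 genes in all. The other 7, wg, fz, arr, dsh, arm, pan and pygo, were not analysed here. The name of the fz2 probe set came from the gene column of the study's own expression table, since the platform annotation used here gave it none.

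The 12 arrays form 3 groups of 4, which were mock RNAi with 0 µg of double-stranded RNA (dsRNA), Rad21 RNAi and Nipped-B RNAi. Rad21 is a subunit of cohesin and Nipped-B loads cohesin onto chromosomes. Each group held 2 arrays of day 3 (replicates 1 and 2), 1 of day 4 (replicate 3) and 1 of day 6 (replicate 4). Both knockdowns received 40 µg of dsRNA at day 3 and 10 µg at days 4 and 6, split equally between 2 dsRNAs for each target, so that dose and time of harvest cannot be told apart. Mock cells received no control dsRNA, and all groups come from 1 cell line.

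Wingless is a secreted Wnt protein that binds Frizzled receptors and the co-receptor Arrow. In cells that receive no Wingless, a complex built on the scaffold Axin marks the β-catenin Armadillo for destruction. Binding of the ligand recruits Dishevelled and Axin to the membrane, so that Armadillo accumulates, enters the nucleus and works with the DNA-binding protein Pangolin (TCF) and with Pygopus to turn on target genes. In the fly nervous system Wingless helps to pattern neuroblasts and shapes synapses.

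Values are log2 expression as the authors computed it with GCRMA, on which the probe sets too low to be tested had a median of 2.26. Tests were run on the 7350 probe sets with a value of log2 4 or more on 2 or more arrays, and all 3 members were among them. Between 7199 and 7261 probe sets reached log2 4 on each array, and the array medians over those tested lay between 9.33 and 9.41. Differences are averages over day 3 and the later days, from limma, and were called at an adjusted p of at most 0.1 over all 7350. The Nipped-B probe set stayed between 2.27 and 2.29 on all arrays and therefore does not measure the knockdown. Of 7 neuronal markers with a probe set, only elav reached log2 4, at 7.79 to 9.43, while 5 of 7 glial, 2 of 6 neuroblast and 4 of 7 haemocyte markers did. The summed level of the haemocyte markers was 14.07 to 14.50 in mock, 13.74 to 14.17 with Rad21 RNAi and 13.61 to 14.16 with Nipped-B RNAi, and that of the muscle markers, 1 of 2 of which (sls) reached log2 4, was 3.90 to 4.16, 4.15 to 6.16 and 3.93 to 5.46. Of 6 epithelial and tracheal markers crb and shg reached log2 4, with a summed level of 6.44 to 7.56, 6.36 to 6.78 and 6.23 to 6.84. Neuronal markers summed to 7.98 to 9.20, 8.81 to 9.36 and 8.34 to 9.49 in the same order. Glial markers gave 13.65 to 13.91, 13.86 to 13.95 and 13.81 to 14.11. Neuroblast markers gave 5.34 to 6.21, 5.71 to 6.25 and 6.07 to 6.19. The part of these markers in the results was not tested.

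fz2 encodes a seven-pass membrane receptor that binds Wingless, and its transcript was higher late in both knockdowns. Mock arrays gave 7.97 and 7.20 at day 3, 7.19 at day 4 and 7.46 at day 6. With Rad21 RNAi the values were 7.86 and 7.87 at day 3, 8.45 at day 4 and 9.26 at day 6. With Nipped-B RNAi they were 7.70 and 7.56 at day 3, 8.03 at day 4 and 9.42 at day 6. At day 3 both knockdowns lay between the 2 mock arrays, and at days 4 and 6 each knockdown array lay above all 4 mock arrays.

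The group means of fz2 were 7.46 ± 0.36 in mock, 8.18 ± 0.85 with Nipped-B RNAi and 8.36 ± 0.66 with Rad21 RNAi (SD, n = 4 arrays). Averaged over both times, fz2 rose with Rad21 RNAi by 0.90 (SE 0.31, limma adjusted p = 0.0433), a 1.87-fold increase, with 3 of 4 arrays above the mock array of the same number. Among all tested probe sets 27.3% rose with Rad21 RNAi. This call was lost without mock replicate 2 (0.71, adjusted p = 0.138), without mock replicate 3 (0.84, adjusted p = 0.101) and without Rad21 replicate 4 (0.70, adjusted p = 0.139). The difference with Nipped-B RNAi was 0.72 (SE 0.31, adjusted p = 0.101), just short of the threshold, where 24.4% of all probe sets rose. With treatment and the replicate number (the block) as the terms it was called (adjusted p = 0.0789). So it was, without a block, when mock replicate 1 (0.92), Nipped-B replicate 3 (1.07) or Rad21 replicate 3 or 4 (0.72) was left out. In RNA of whole cultures more cells that express a gene and more RNA per cell cannot be told apart.

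Effects within the time classes, here and for other genes below, were chosen after the values were seen. Within them, fz2 differed from mock by 0.28 at day 3 of Rad21 RNAi (SE 0.44, limma adjusted p = 0.708). At day 3 of Nipped-B RNAi it differed by 0.05 (adjusted p = 0.968). At days 4 and 6 it rose by 1.52 (SE 0.44, adjusted p = 0.0289) and 1.40 (SE 0.44, adjusted p = 0.0408) with Rad21 and Nipped-B RNAi, where 21.5% and 22.5% of all probe sets rose. Against the mock array of the same day, the increase was 2.38-fold at day 4 and 3.48-fold at day 6 of Rad21 RNAi. With Nipped-B RNAi it was 1.79-fold at day 4 and 3.89-fold at day 6, from 1 array each. The change of the effect between day 3 and the later days was 1.24 with Rad21 RNAi (SE 0.62, adjusted p = 0.408) and 1.35 with Nipped-B RNAi (SE 0.62, adjusted p = 0.520). It passed the threshold for Rad21 RNAi only with the replicate block added to the 6 means of treatment and time class. The adjusted p was then 0.0978, beside 0.127 for Nipped-B RNAi.

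**Figure D1:**
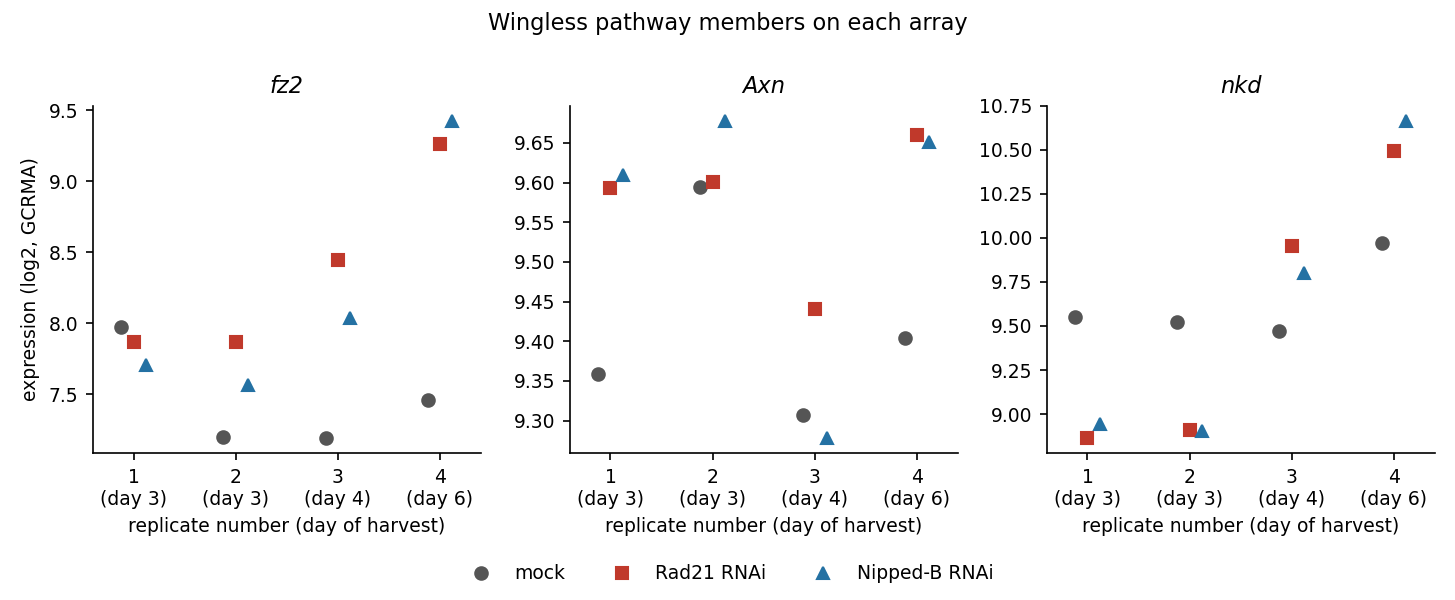
Log2 expression of fz2, Axn and nkd (vertical axis, a scale of its own in each panel) on each of the 12 arrays, by replicate number and day of harvest, for mock (circles), Rad21 RNAi (squares) and Nipped-B RNAi (triangles). fz2 reaches 9.26 and 9.42 at day 6 of the knockdowns against 7.46 in mock, and nkd of both knockdowns lies below mock at day 3 and above it at days 4 and 6.

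The probe sets whose pattern over the 12 arrays was most like that of fz2 were those of EndoU, which encodes an endoribonuclease (Pearson r = 0.931), of Dscam4, a cell adhesion protein of the immunoglobulin superfamily (r = 0.903), and of CG42342 (r = 0.902). These are descriptions across 12 arrays that share treatments and days. EndoU, for example, was at 4.93 in mock and at 7.28 and 7.48 in Rad21 and Nipped-B RNAi at day 6. At day 3 it was at 4.53 and 3.71 in mock and already at 5.78 and 5.54 with Rad21 RNAi, where fz2 lay between the mock arrays.

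Axn encodes Axin, the scaffold of the destruction complex, and its transcript varied little. It was at 9.36 and 9.59 at day 3, 9.31 at day 4 and 9.40 at day 6 in mock. Rad21 RNAi gave 9.59 and 9.60 at day 3, 9.44 at day 4 and 9.66 at day 6. Nipped-B RNAi gave 9.61 and 9.68 at day 3, 9.28 at day 4 and 9.65 at day 6. Over all 12 arrays the range was therefore 9.28 to 9.68, and the groups overlapped.

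The group means of Axn were 9.42 ± 0.13 in mock, 9.55 ± 0.19 with Nipped-B RNAi and 9.57 ± 0.09 with Rad21 RNAi (SD, n = 4 arrays). The difference from mock was 0.16 with Rad21 RNAi (SE 0.10, adjusted p = 0.228, higher in 4 of 4 pairs) and 0.14 with Nipped-B RNAi (SE 0.10, adjusted p = 0.305, higher in 3 of 4 pairs). The 95% intervals ran from -0.07 to 0.38 and from -0.08 to 0.36, so that an increase above 0.38 lies outside both. With treatment and block as the terms the Rad21 difference was called (adjusted p = 0.0771) and the Nipped-B difference was not (adjusted p = 0.124). The Nipped-B difference was called without Nipped-B replicate 3, where it was 0.23 (adjusted p = 0.0675). The change of the effect with time was 0.07 for Rad21 RNAi (adjusted p = 0.895) and -0.06 for Nipped-B RNAi (adjusted p = 0.961).

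nkd encodes Naked cuticle, which binds Dishevelled and dampens the signal, and which Wingless itself induces in many fly tissues. It was at 9.55 and 9.52 at day 3, 9.47 at day 4 and 9.97 at day 6 in mock. Rad21 RNAi gave 8.87 and 8.91 at day 3, 9.95 at day 4 and 10.49 at day 6. Nipped-B RNAi gave 8.94 and 8.91 at day 3, 9.80 at day 4 and 10.66 at day 6. All 4 knockdown arrays of day 3 lay below every mock array, and all 4 later ones lay above the mock array of their own day.

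Averaged over both times these differences cancelled, to -0.07 with Rad21 RNAi (SE 0.20, adjusted p = 0.783) and -0.05 with Nipped-B RNAi (SE 0.20, adjusted p = 0.859). At day 3 nkd was 1.60-fold and 1.53-fold lower than the same-numbered mock arrays with Rad21 RNAi, and 1.52-fold and 1.53-fold lower with Nipped-B RNAi. It was 1.40-fold higher at day 4 and 1.43-fold higher at day 6 of Rad21 RNAi, and 1.25-fold and 1.61-fold higher with Nipped-B RNAi.

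The change of the nkd effect between day 3 and the later days was 1.15 with Rad21 RNAi (SE 0.39, adjusted p = 0.258) and 1.12 with Nipped-B RNAi (SE 0.39, adjusted p = 0.395) without a block. Of all probe sets 1.24% and 0.34% were called there. With the replicate number as a block in the same model, an alternative added after the values were seen, the SE was 0.14 and both changes were called (adjusted p = 0.0109 and 0.0175), beside 9.36% and 3.32% of all probe sets. In that model nkd fell at day 3 by 0.65 (adjusted p = 0.00165) and 0.61 (adjusted p = 0.0062) with Rad21 and Nipped-B RNAi, where 22.1% and 14.2% of all probe sets fell. It rose by 0.50 (adjusted p = 0.00409) and by 0.51 (adjusted p = 0.00401) at the later days, where 31.8% and 33% rose. Without the block none of these 4 differences was called (adjusted p = 0.131, 0.236, 0.202 and 0.198). The change with Nipped-B RNAi was also called without Nipped-B replicate 3, at 1.55 (adjusted p = 0.0797).

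**Figure D2:**
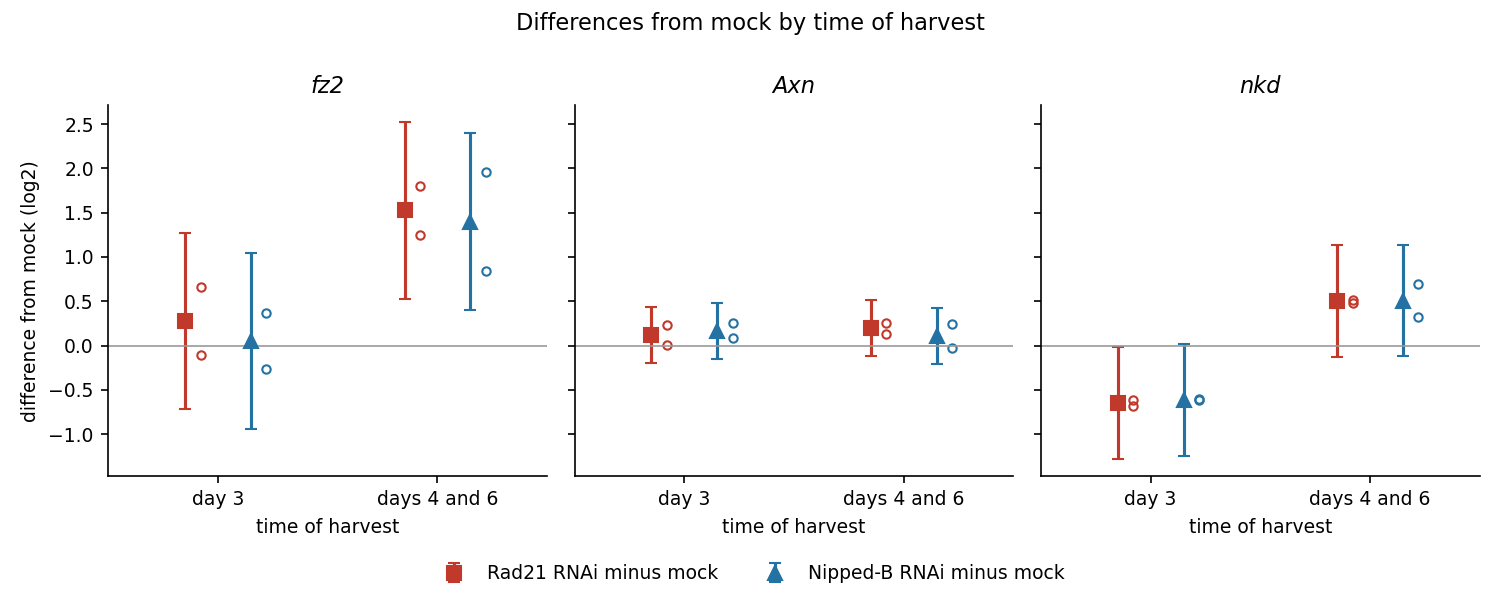
Difference from mock (log2, vertical axis) of fz2, Axn and nkd at day 3 and at days 4 and 6, for Rad21 RNAi (squares) and Nipped-B RNAi (triangles). Filled symbols are limma estimates with 95% intervals without the replicate block, and open circles are the single differences from the mock array of the same number. The nkd differences are negative at day 3 (-0.65 and -0.61) and positive later (0.50 and 0.51), and the later fz2 differences are 1.52 and 1.40.

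The same sequence, lower than mock in 4 of 4 pairs of day 3 and higher in 4 of 4 later pairs, was looked for after nkd was seen. Apart from nkd, which prompted the search, 2 of the other 54 pathway genes (3.70%) had it, otk2 and tsh, beside 1.41% of all tested probe sets. otk2 encodes a relative of the Wnt co-receptor Off-track, and tsh a zinc finger protein. tsh lay between 4.02 and 5.40, near log2 4, and mock gave 4.54 and 5.38 at day 3. Its pair differences ran from -0.06 to -1.26 at day 3 and from 0.09 to 0.80 later. For otk2 the mean differences were -0.41 at day 3 and 0.27 later with Rad21 RNAi, and -0.34 and 0.27 with Nipped-B RNAi. In mock cells otk2 itself fell from 8.19 and 8.19 at day 3 to 7.69 at day 4 and 7.30 at day 6, while mock nkd differed by 0.19 (adjusted p = 0.657).

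The knockdowns were compared directly for the members. Rad21 minus Nipped-B RNAi was 0.18 for fz2, with a 95% interval from -0.53 to 0.88. It was 0.02 for Axn, with an interval from -0.20 to 0.24, and -0.02 for nkd, with an interval from -0.47 to 0.42. No member was called (limma, 0 of 3 also at an unadjusted p under 0.05), and 0.0952% of all probe sets were. In mock cells the later days minus day 3 gave -0.26 for fz2 (SE 0.44), -0.12 for Axn (SE 0.14) and 0.19 for nkd (SE 0.28), and no member was called (0 of 3 at an unadjusted p under 0.05).

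Other genes of the pathway were sorted by role into lists of 106 genes, the members included. A probe set was named for 82 of them and 55 were tested, since 27 stayed under log2 4 on every array. These 27 included the ligands Wnt6 and Wnt10, 15 of the 20 targets with a probe set, among them Dll, vg, sens and Notum, and the planar polarity genes stan, dgo, ft, ds and fj. Neither ligand with a probe set thus reached log2 4, and the other 5 ligands listed were not analysed here.

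With Rad21 RNAi 26 of the 55 rose (47.3%, against 27.3% of all probe sets) and 2 fell (3.64%, against 24.1%). With Nipped-B RNAi 24 rose (43.6%, against 24.4%) and 3 fell (5.45%, against 19.9%). The median difference was 0.21 and 0.17, beside 0.04 and 0.05 over all tested probe sets. Both comparisons share the mock arrays. The lists were chosen with earlier results of these data known. The shares set genes, each by its probe set of highest mean, beside single probe sets. With the replicate block 58.2% and 56.4% of the 55 rose, against 35.8% and 34.1% of all probe sets. With treatment as the only term 16 rose with Rad21 RNAi (29.1%, against 18%), and 11 rose (20%, against 13.5%) and 1 fell (1.82%, against 13.6%) with Nipped-B RNAi. Without Nipped-B replicate 2, 15 rose with Nipped-B RNAi (27.3%, against 18.1%), and without mock replicate 4, 4 fell with Rad21 RNAi (7.27%, against 25.9%). In 23 of the 55 genes (41.8%) the increase was called with both knockdowns and present in all 8 pairs, as for 19.3% of all probe sets, and in 1 (1.82%) the same held for a decrease, as for 17.1%.

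**Figure D3:**
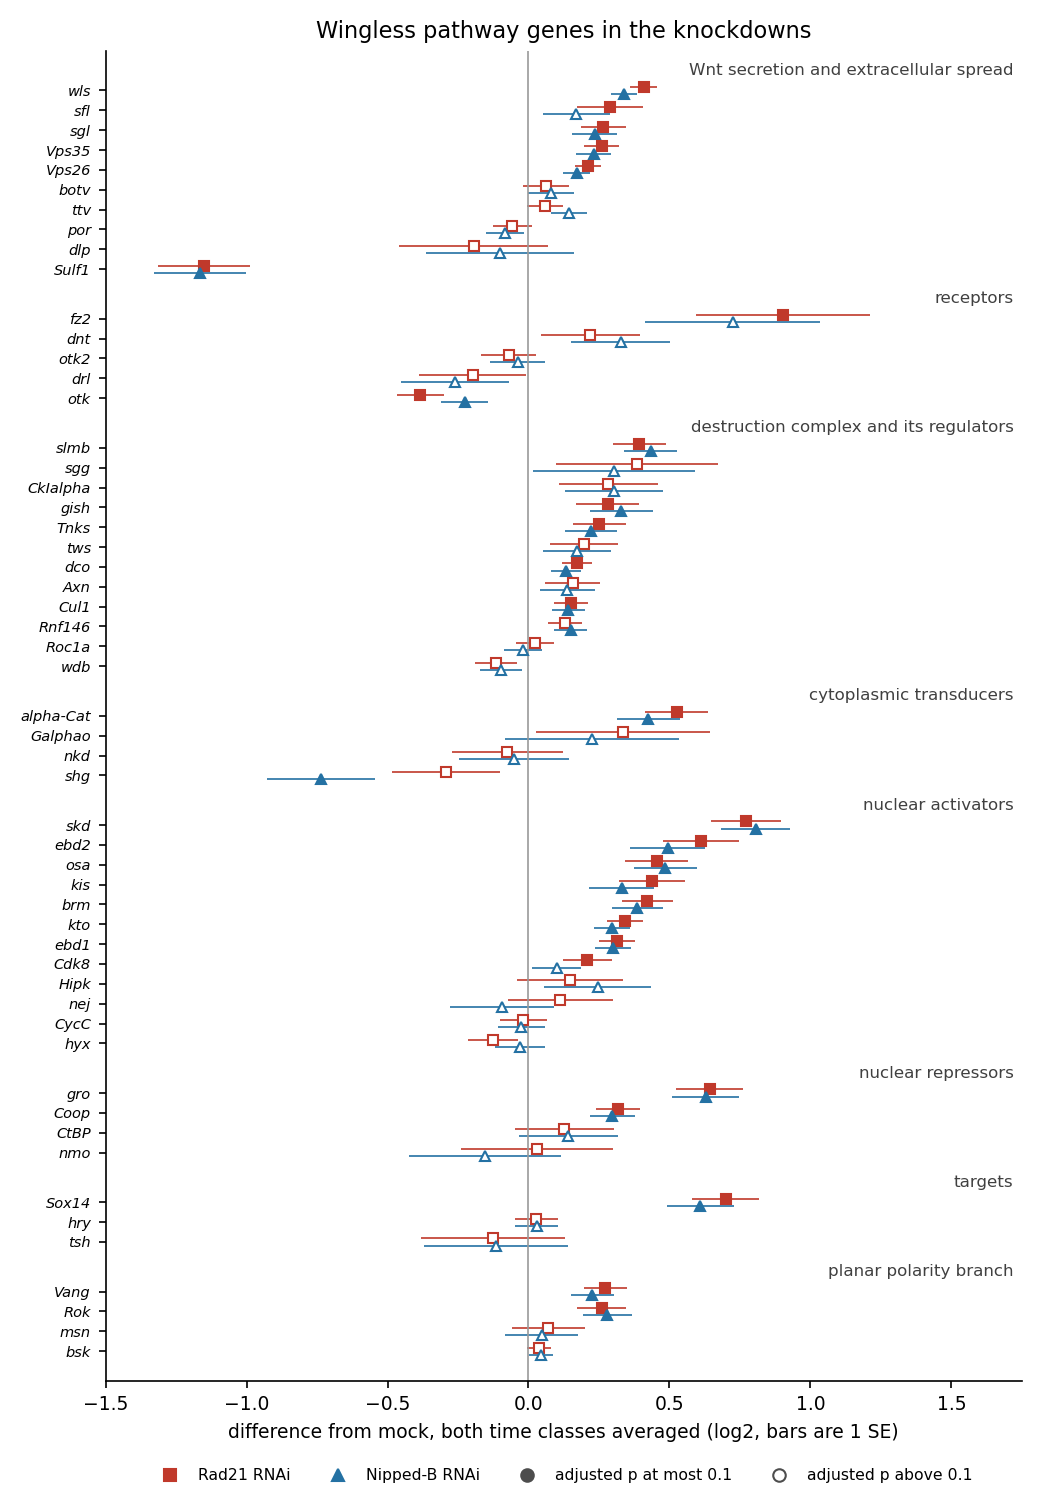
Difference from mock (log2, horizontal axis, averaged over day 3 and the later days, bars are 1 SE) of the tested pathway genes by role, for Rad21 RNAi (squares) and Nipped-B RNAi (triangles). Filled symbols have an adjusted p of at most 0.1; en, at 4.40 and 3.97, lies outside the axis and is not drawn, and Sulf1 stands alone at the left with -1.15 and -1.17.

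Among 10 tested genes of Wnt secretion and spread, 5 rose and 1 fell with Rad21 RNAi, where 27.3% and 24.1% of all probe sets did. wls encodes the carrier that brings Wnt proteins to the cell surface. It was at 11.54, 11.60, 11.63 and 11.63 on mock replicates 1 to 4, at 11.91, 11.91, 12.13 and 12.09 with Rad21 RNAi, and at 11.88, 11.80, 11.97 and 12.11 with Nipped-B RNAi. The groups did not overlap, and the increase was 0.41 (SE 0.05, adjusted p = 0.000255) and 0.34 (SE 0.05, adjusted p = 0.000998). Vps35 and Vps26, retromer subunits that return Wls from endosomes, rose by 0.26 and 0.21 with Rad21 RNAi and by 0.23 and 0.17 with Nipped-B RNAi.

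Sulf1, an extracellular sulfatase that trims heparan sulfate, was the gene that fell in all 8 pairs. Mock replicates 1 to 4 gave 10.40, 10.56, 10.85 and 10.04, Rad21 RNAi gave 8.87, 9.07, 9.59 and 9.73, and Nipped-B RNAi gave 9.27, 9.46, 9.37 and 9.10. All knockdown arrays lay below all mock arrays. Sulf1 fell by 1.15 (SE 0.16, adjusted p = 0.000708) with Rad21 RNAi and by 1.17 (SE 0.16, adjusted p = 0.00102) with Nipped-B RNAi, or 2.22-fold and 2.24-fold. The glypican gene dlp gave -0.19 and -0.10, and por, whose product attaches the lipid of Wnt proteins, gave -0.06 and -0.08, none called.

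Of 5 tested receptors fz2 rose with Rad21 RNAi. otk, a Wnt co-receptor, fell by 0.38 (adjusted p = 0.00596) and 0.23 (adjusted p = 0.0632) with Rad21 and Nipped-B RNAi. Among all probe sets 27.3% rose and 24.1% fell with Rad21 RNAi, and 19.9% fell with Nipped-B RNAi. The Derailed-type receptor genes drl and dnt gave -0.20 and 0.22 with Rad21 RNAi and -0.26 and 0.33 with Nipped-B RNAi, and neither average was called. By time, drl was 0.82 below mock at day 3 of Rad21 RNAi (adjusted p = 0.0568), where 15.8% of all probe sets fell. At the later days of Nipped-B RNAi dnt was 0.76 above mock (adjusted p = 0.0468), where 22.5% rose. Mock dnt was at 9.72 and 9.98 at day 3 and at 9.16 and 8.44 later. Nipped-B RNAi gave 9.81 and 9.69, then 9.81 and 9.32. Mock drl was at 5.68 and 5.91 at day 3 and at 4.04 and 3.93 later, near log2 4. With the block in the 6 means the dnt averages were called with Rad21 RNAi (adjusted p = 0.0423) and Nipped-B RNAi (adjusted p = 0.00921).

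In the destruction complex and its regulators, 5 of 12 rose with Rad21 RNAi and 6 with Nipped-B RNAi, and none fell. In those comparisons 27.3% and 24.4% of all probe sets rose, and 24.1% and 19.9% fell. With the block in the 6 means 9 of 12 rose with Rad21 RNAi, Axn and the casein kinase gene CkIalpha among them. In that fit 35.8% of all probe sets rose. slmb, the ubiquitin ligase subunit that recognises phosphorylated Armadillo, rose by 0.39 (adjusted p = 0.00954) and 0.43 (adjusted p = 0.00813). The kinase genes gish and dco rose by 0.28 and 0.17 with Rad21 RNAi. Tnks, the tankyrase that marks Axin for degradation, rose by 0.25, with pair differences of 0.09, 0.11, 0.14 and 0.67. Mock replicate 4 of Tnks was at 7.64, against 8.08 to 8.36 on the other mock arrays. sgg, the kinase that phosphorylates Armadillo, lay between 2.93 and 4.18 and was not called. Its 1 probe set, like that of fz2, was named only from the study's table.

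Cytoplasmic transducers differed among themselves. alpha-Cat, which ties the cadherin and Armadillo complex to actin, rose by 0.52 (adjusted p = 0.00548) and 0.43 (adjusted p = 0.018) in the same order. shg, the E-cadherin that holds Armadillo at the membrane, differed by -0.29 with Rad21 RNAi (adjusted p = 0.253) and fell by 0.73 with Nipped-B RNAi (adjusted p = 0.0176). The estimates differed by time, but the change of the effect was not called (1.59, adjusted p = 0.144, and 1.21, adjusted p = 0.347). With the block in the 6 means it was called with Rad21 RNAi (adjusted p = 0.0587) and not with Nipped-B RNAi (adjusted p = 0.148). At day 3 shg fell by 1.09 (adjusted p = 0.0207) and 1.34 (adjusted p = 0.0253) in the same order, where 15.8% and 6.93% of all probe sets fell. At the later days it differed by 0.50 (adjusted p = 0.189) and -0.13 (adjusted p = 0.744), and at day 6 of Nipped-B RNAi it was 0.34 above mock. In mock cells shg was at 6.67 and 6.79 at day 3 and at 5.32 and 5.02 later, a decrease with time of its own (adjusted p = 0.00553). With the replicate block Galphao, a G protein gene, was also called with both knockdowns (adjusted p = 0.0186 and 0.0914 with treatment and block as the terms).

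Of 12 tested genes listed here as nuclear activators 8 rose with Rad21 RNAi and 7 with Nipped-B RNAi, and none fell. Whether each of them activates Wingless targets in these cells was not tested. In those comparisons 27.3% and 24.4% of all probe sets rose, and 24.1% and 19.9% fell. skd and kto encode the large subunits of the Mediator kinase module. skd was at 9.41, 9.67, 8.74 and 8.88 on mock replicates 1 to 4, at 10.04, 10.19, 9.70 and 9.85 with Rad21 RNAi, and at 10.07, 10.34, 9.50 and 10.00 with Nipped-B RNAi. It rose by 0.77 (SE 0.12, adjusted p = 0.00129) and 0.81 (SE 0.12, adjusted p = 0.00154), and was above the same-numbered mock array in all 8 pairs. A second probe set of skd rose by 0.63 and 0.56. kto rose by 0.34 and 0.30.

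Chromatin remodelling genes of the same list rose by less than 0.5. osa and brm, of the Brahma complex, rose by 0.45 and 0.42 with Rad21 RNAi and by 0.49 and 0.39 with Nipped-B RNAi. kis rose by 0.44 and 0.33, the second call (adjusted p = 0.0543) being lost without mock replicate 1, 2 or 3 or Nipped-B replicate 2 or 4, with adjusted p up to 0.159. ebd2, a relative of the Armadillo cofactor Earthbound 1, rose by 0.61 and 0.49. nej, hyx and CycC were called with neither knockdown. Hipk, a kinase gene, was called only with Nipped-B RNAi and a block (0.24, adjusted p = 0.0205 with treatment and block as the terms).

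Among the repressors gro, the co-repressor that holds TCF targets off in the absence of signal, was at 9.59, 9.82, 8.69 and 8.78 on mock replicates 1 to 4. Rad21 RNAi gave 10.00, 10.08, 9.62 and 9.75, and Nipped-B RNAi gave 9.91, 10.23, 9.39 and 9.87. gro rose by 0.64 (SE 0.12, adjusted p = 0.00268) and 0.63 (SE 0.12, adjusted p = 0.00423). Its mock level at days 4 and 6 was 0.97 below that of day 3 (adjusted p = 0.00544), and the knockdown arrays of those days lay within or above the mock values of day 3 except for Nipped-B replicate 3.

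**Figure D4:**
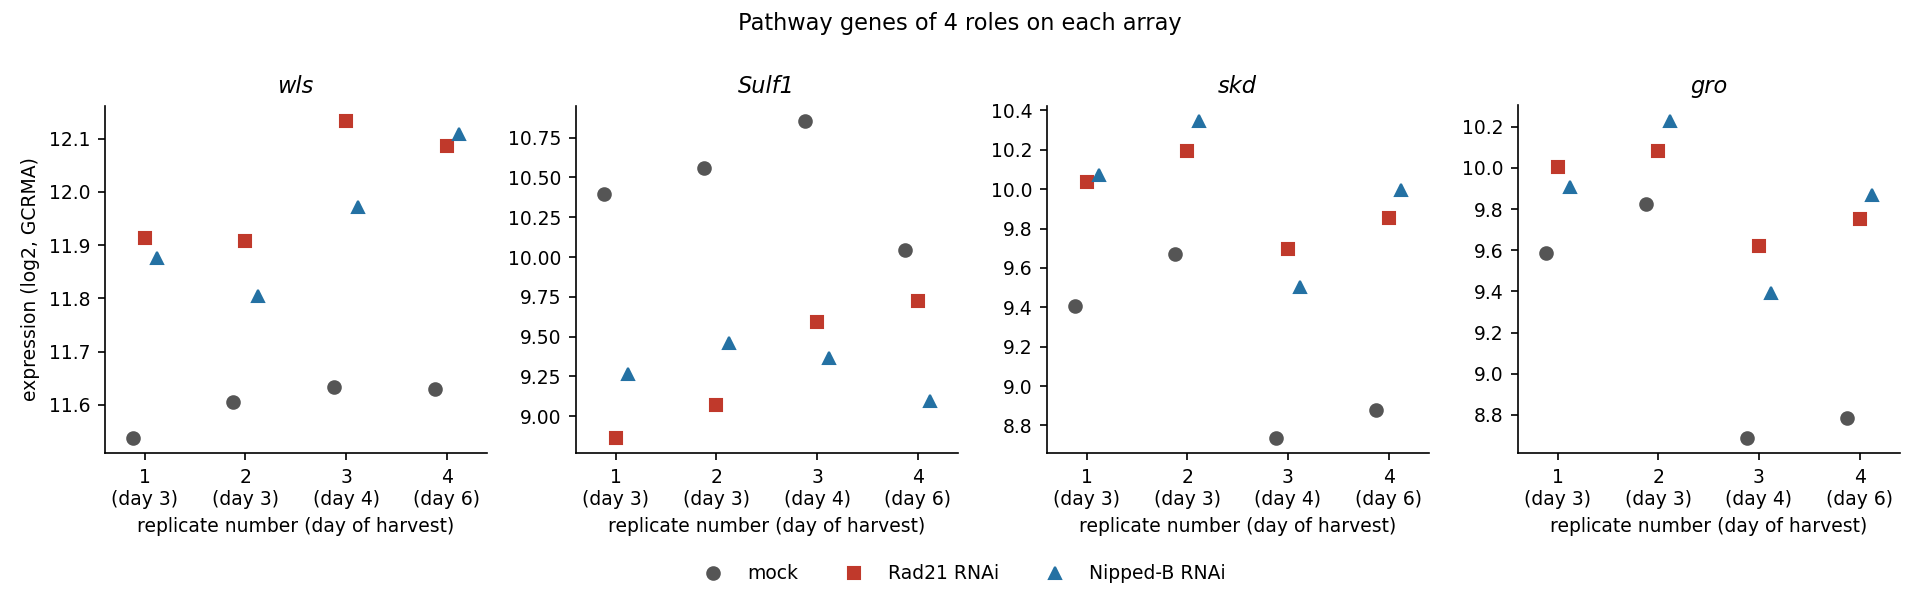
Log2 expression of wls, Sulf1, skd and gro (vertical axis, a scale of its own in each panel) by replicate number and day of harvest in mock (circles), Rad21 RNAi (squares) and Nipped-B RNAi (triangles). wls and Sulf1 of the knockdowns lie apart from mock throughout, at or above 11.80 against 11.63 and at or below 9.73 against 10.04, while skd and gro of mock fall to 8.74 and 8.69 at day 4.

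Of 5 tested targets Sox14, a Sox transcription factor gene, rose by 0.70 (adjusted p = 0.00173) and 0.61 (adjusted p = 0.0049), and en, the homeodomain gene engrailed, by 4.40 and 3.97. The paper reports that cohesin coats the complex holding engrailed and that its transcripts rise unusually strongly after cohesin knockdown. Whether Wingless signalling had a part in the rise of en was not tested. hry and tsh were called with neither knockdown. Of 4 tested planar polarity genes Vang and Rok rose with both knockdowns, by 0.23 to 0.28. With Rad21 and Nipped-B RNAi 27.3% and 24.4% of all probe sets rose.

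The pathway genes also moved with time in mock cells. Between day 3 and the later days 24 of the 55 fell (43.6%, against 20.8% of all probe sets) and 1 rose (1.82%, against 14.4%), hry, the gene hairy, by 0.45. The decreases included drl by 1.81, shg by 1.56, dnt by 1.05, gro by 0.97, kis by 0.87 and skd by 0.73. Without mock replicate 2, 9 fell (16.4%, against 9.21%), and without mock replicate 3 or 4, 3 or 2 rose (5.45%, against 13.6%, and 3.64%, against 11.3%). No pathway gene was called for Rad21 against Nipped-B RNAi (limma, 2 at an unadjusted p under 0.05) or for a change of either effect with time (7 with Rad21 RNAi and 6 with Nipped-B RNAi at an unadjusted p under 0.05). With the replicate block in the 6 means 10 changes were called with Rad21 RNAi (18.2%, against 9.36% of all probe sets). With Nipped-B RNAi 3 were called (5.45%, against 3.32%). All were towards higher values later, and nkd was called with both. Without the block, 9 and 6 changes towards higher values were called when mock replicate 3 was left out (16.4%, against 8.94%, and 10.9%, against 3.5%). Without Nipped-B replicate 3 there were 2 and 2 (3.64%, against 1.29% and 1.22%), and without Nipped-B replicate 4 there were 2 with Rad21 RNAi, beside 1.29%.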

How the data were processed

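RNA of 12 samples was measured on Affymetrix Drosophila Genome 2.0 arrays. The authors had summarised probe intensities with GCRMA (no version stated) and deposited the log2 values. GCRMA brings all arrays to 1 distribution, so a shift shared by all genes cannot be seen, and precision rests on the number of arrays. The table held 18952 probe sets, of which 183 controls were not analysed. The platform annotation named 13544 probe sets with 1 gene, 402 with several and 4720 with none, and 105 of those without were named from the gene column of the study's table, of which 1996 rows were held. Both sources agreed for 1334 of 1337 probe sets. For a gene with several probe sets, the one of highest mean stood for it.

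Differences were fitted with limma 3.58.1 in R 4.3.3 (6 means of 3 treatments by 2 time classes, eBayes with trend) with Benjamini-Hochberg adjustment. The fit was tested on simulated data. Members and lists were chosen with earlier results of these data known. The labels call the replicates biological, and with nothing more stated p-values measure the spread between these samples. Days 4 and 6 share a time class, so without the block that spread also holds any change between those days. Deviations from the group means correlated within each number (r = 0.492 to 0.792 over the 12 pairs), so numbers were taken to pair samples. Same-numbered arrays also share the day of harvest, and crossed numbers within day 3 gave 0.445 to 0.608. Other pathway genes were named where called with both knockdowns in the same direction in all 8 pairs, at most 12 a direction, and others to fill out a role, after their values were seen. Alternatives were other filters, treatment as the only term, variances without trend, centred arrays, low values set to 4, the replicate block, a threshold of 0.05, the mean of a gene's probe sets and leaving out each array. The block in the 6 means and effects within time classes were chosen after seeing the data. Python 3.11.15, pandas, numpy and scipy were used for the rest.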

Additional observations from a re-analysis of the deposited data

Results flagged for a closer look

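The effect of each knockdown on nkd went opposite ways at day 3 and at the later days in every pair, lower in 2 of 2 and higher in 2 of 2. The change was 1.15 with Rad21 RNAi and 1.12 with Nipped-B RNAi, with a limma adjusted p of 0.258 and 0.395 without the replicate block and of 0.0109 and 0.0175 with it. The amount of dsRNA changed at the same time.

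In 4 of 48 groups of 4 arrays, for the members and the genes named by rule, 1 array lay far from the other 3, where chance gives about 1 in 20. These were nkd at 9.97 on mock replicate 4, Axn at 9.28 and alpha-Cat at 11.63 on Nipped-B replicate 3, and Sox14 at 9.14 on mock replicate 4. The arrays are those of days 4 and 6, of which each group has 1.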

How the results depend on the processing

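Precision is limited by 4 arrays a group and 1 for each later day. Where an array is left out, a lone array of a class is assumed to vary like the others. With the replicate block in the model of treatment, fz2 with Nipped-B RNAi (0.72) and Axn with Rad21 RNAi (0.16) were called. With the block in the 6 means these 2 and the changes with time of fz2 with Rad21 RNAi (1.24) and of nkd (1.15 and 1.12) were called, and the block changed no other call among the averaged differences of the members and of the genes named by rule. The counts of changes with time were then 10 and 3 genes higher. fz2 with Rad21 RNAi (0.90) was not called without a filter or with treatment as the only term. With Nipped-B RNAi (0.72) it was called with a limit of log2 5 and with the mean of a gene's probe sets. With treatment as the only term 16 pathway genes rose with Rad21 RNAi, and 11 rose and 1 fell with Nipped-B RNAi. Of 26 results for the other genes named by rule 22 kept call and direction under every alternative, and 4 lost the call under at least 1, in each case with the same sign.

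Leaving out 1 array at a time, the Rad21 difference ran from 0.70 to 1.11 for fz2, from 0.0983 to 0.22 for Axn and from -0.21 to 0.0592 for nkd. It reversed for nkd without mock replicate 4 (0.05) or Rad21 replicate 3 (0.0592). The Nipped-B difference ran from 0.38 to 1.07 for fz2, from 0.0448 to 0.23 for Axn and from -0.27 to 0.16 for nkd, which reversed without mock replicate 4 (0.07) or Nipped-B replicate 3 (0.16). Rad21 minus Nipped-B RNAi ran from -0.17 to 0.53 for fz2, from -0.0739 to 0.11 for Axn and from -0.24 to 0.19 for nkd. The change in mock ran from -0.64 to 0.13 for fz2, from -0.24 to -0.0032 for Axn and from -0.0639 to 0.43 for nkd. The change of the Rad21 effect ran from 0.84 to 1.65 for fz2, from -0.0438 to 0.19 for Axn and from 0.88 to 1.42 for nkd. That of the Nipped-B effect ran from 0.66 to 2.05 for fz2 (adjusted p 0.106 to 0.786), from -0.24 to 0.13 for Axn and from 0.69 to 1.55 for nkd.

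The counts of pathway genes ran from 2 to 4 lower with Rad21 RNAi, from 15 to 27 higher with Nipped-B RNAi, and from 1 to 3 higher and 9 to 26 lower with time in mock. Changes of the Rad21 effect ran from 0 to 9 higher and 0 to 2 lower, and those of the Nipped-B effect from 0 to 6 higher and 0 to 1 lower. These ranges are for leaving out 1 array at a time. Fits with other terms gave counts outside them, such as 11 higher with Nipped-B RNAi with treatment as the only term. The cause of these shifts was not tested.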
